A study of Mus musculus with 9 samples.

Results

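ERK feedback genes are the genes that a cell switches on when fibroblast growth factor (FGF) activates the kinase ERK, and many of their products then hold the same pathway back. The 10 genes described here are the phosphatase genes Dusp4 and Dusp6, the Sprouty genes Spry1, Spry2 and Spry4, the related genes Spred1 and Spred2, the ETS transcription factor genes Etv4 and Etv5, and the immediate early gene Egr1. They were chosen by name, and each matched 1 of the 54532 named genes of the count table. All 10 passed the filter on low counts, as did 16178 genes in all.

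FGF binds a receptor tyrosine kinase, which activates Ras, and Ras starts the chain of kinases Raf, MEK and ERK. DUSP6 removes the activating phosphates from ERK in the cytoplasm and DUSP4 does so in the nucleus, while Sprouty and SPRED proteins act further up, between the receptor and Raf. In the mouse epiblast and in the primed stem cells derived from it, FGF signalling through ERK goes with the exit from the naive state and with readiness to differentiate, and the RNA of these genes is widely used as a readout of the pathway.

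The study sequenced 3 mouse cell types, each with 3 libraries, from Sv129 x GOF/GFP F1 cells. AFSC, which the labels liken to epiblast stem cells, came from blastocysts, grew with Activin A plus bFGF, and were collected at passage 15 to 20. Further passaging of AFSC without bFGF in the stated recipes, with Activin A kept throughout, gave ALSC and ABSC. ABSC grew with BMP4, are likened by the labels to trophoblast stem cells and were at passage 25 to 30, while ALSC, at passage 20 to 25, are read here as the cells with leukaemia inhibitory factor (LIF). The protocol gives the LIF recipe under the AB name, so that reading rests on the letter L. The loss of bFGF, the factor that replaced it and the passage number changed together and cannot be told apart, and the cells had been kept in their media for repeated passages, so the levels are those of established cultures and not of an acute withdrawal. Levels are given as CPM (the usual measure of counts relative to the scaled library total), and a gene is called higher or lower where the edgeR quasi-likelihood test gave an adjusted p under 0.05 over all genes tested. The labels do not say that the 3 libraries of a cell type came from separate cultures, so p-values measure the spread between these libraries.

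Total counts ran from 18978651 to 21578737 per library. The pluripotency markers summed to 2275 to 2721 CPM per library, and markers of fibroblasts, the usual feeder cells, to 9.16 to 23.9 CPM. Single pluripotency markers were not level. In AFSC, ALSC and ABSC, Sox2 was at 25.3, 11.9 and 16.1 CPM and Utf1 at 430, 231 and 330 CPM. Nanog was at 139, 250 and 181 CPM in that order, Tdgf1 at 555, 937 and 779 CPM, and Pou5f1 at 1074, 935 and 1226 CPM. Dppa5a reached at most 0.961 CPM. Of the 8 trophoblast markers, Elf5 and Gata3 were low in ABSC, with means of 0.0332 and 0.750 CPM. Cdx2 rose there from 0.126 to 4.45 CPM (log2 fold change 5.04, edgeR adjusted p = 0.00839) and Krt8 from 104 to 156 CPM (0.58, edgeR adjusted p = 0.0120). Krt7 fell from 2.67 CPM in AFSC to 0.891 CPM in ABSC (-1.57, edgeR adjusted p = 0.0119). Tfap2c was highest in ALSC, at 3.79 CPM in AFSC, 18.7 CPM in ALSC and 8.64 CPM in ABSC. Eomes was at 122 CPM in AFSC and 117 CPM in ABSC, and Esrrb was at 102 CPM in both. The libraries numbered 1 stood apart in every cell type. For 20.2% of the genes tested, number 1 was the lowest of the 3 libraries in all cell types at once, and 7 of the 10 feedback genes were among them. The parts of culture, handling and sequencing in this were not tested, and the calls on the feedback genes are given below with and without them.

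The upstream DNA of 3 genes of the same feedback is shown because their calls differed. Dusp6 was lower in ALSC, Spry2 stood lower in both cell types without bFGF once the library number was taken into account, and Spred2 was not lower in either. Differences between the genes were not tested. In ALSC, Dusp6 and Spry2 stood at nearly the same log2 fold change over all 9 libraries (-0.62 and -0.60). In ABSC with the library number as a block, Dusp6 stood at -0.17 (edgeR adjusted p = 0.0611). The lines give the 250 bases before the transcription start from RefSeq (GRCm38.p6), read along the gene, with each GGAA in capitals on either strand, TTCC being the same letters on the other strand. GGAA is the core that ETS factors, Etv4 and Etv5 among them, bind. The Dusp6 stretch lies on the plus strand at chr10:99262981-99263230, the Spry2 stretch on the minus strand at chr14:105896820-105897069 and the Spred2 stretch on the plus strand at chr11:19924192-19924441.
Dusp6: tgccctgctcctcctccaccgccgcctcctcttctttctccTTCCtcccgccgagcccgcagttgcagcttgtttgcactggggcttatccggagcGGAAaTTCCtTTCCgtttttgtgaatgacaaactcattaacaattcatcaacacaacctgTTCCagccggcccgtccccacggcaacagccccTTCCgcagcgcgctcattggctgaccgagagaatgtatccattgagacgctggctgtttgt
Spry2: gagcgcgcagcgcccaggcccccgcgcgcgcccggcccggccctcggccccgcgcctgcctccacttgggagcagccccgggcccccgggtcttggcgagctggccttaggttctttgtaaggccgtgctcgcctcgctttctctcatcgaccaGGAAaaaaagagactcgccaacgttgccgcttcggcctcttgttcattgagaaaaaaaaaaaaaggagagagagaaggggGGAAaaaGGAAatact
Spred2: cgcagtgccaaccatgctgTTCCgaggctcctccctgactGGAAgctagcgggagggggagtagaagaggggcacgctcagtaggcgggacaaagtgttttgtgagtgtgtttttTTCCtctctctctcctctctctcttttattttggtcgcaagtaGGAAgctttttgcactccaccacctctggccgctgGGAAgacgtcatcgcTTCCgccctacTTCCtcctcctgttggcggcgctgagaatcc
The RefSeq table held promoters of 6 of the 10 genes, and none was matched for Dusp4, Spry4, Etv4 and Egr1. In the whole window of 300 bases, which runs 50 bases past the start, GGAA occurred 6 times at Dusp6, 5 times at Spry2 (3 of them in the bases shown) and 7 times at Spred2, on both strands together. The RefSeq start of Spred2 lies inside the gene model of the count table, while those of Dusp6 and Spry2 are at its edge. Of all 32851 promoter entries, 96% held at least 1 GGAA, so its presence does not set these genes apart. The longer CGGAAG, which contains GGAA, was found 1 time each at Dusp6 and Spred2 and not at Spry2, against 16.9% of all entries. Of the other matched genes, Spred1 held it 2 times, and Spry1 and Etv5 did not hold it. AGGAAG, which also contains GGAA, was found 1 time at Dusp6, 2 times at Spred2 and not at Spry2, against 35.4%. It was also found 1 time in an Etv5 entry and not at Spry1 or Spred1. Neither TGACTCA, the AP-1 site (5.2% of entries), nor the CArG box of serum response factor (1.63%) was found in any matched member.

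Measured per kilobase of gene model, so that genes can be compared, Dusp6 and Etv5 were the most abundant of the feedback genes and Spry1 the least. The mean over the 3 cell types was 91.6 CPM per kilobase for Dusp6, 86.3 for Etv5, 40.7 for Etv4 and 31.8 for Spred2. Spry2 followed at 28.2, Spred1 at 19.7, Dusp4 at 15.7, Egr1 at 14.5, Spry4 at 8.29 and Spry1 at 5.56. By the mean over all 9 libraries, AFSC included, the range ran from the 56.2 to the 96.6 percentile of all genes tested. Spry1, at the low end, thus lay little above the middle of the distribution. The smallest count of any feedback gene in any library was 269 reads, for Spry1 in ALSC 1. The set therefore stayed well expressed in both cell types kept without bFGF, and no feedback gene came near the limit that a count of 0 allows, 0.138 to 0.157 CPM.

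**Figure D1:**
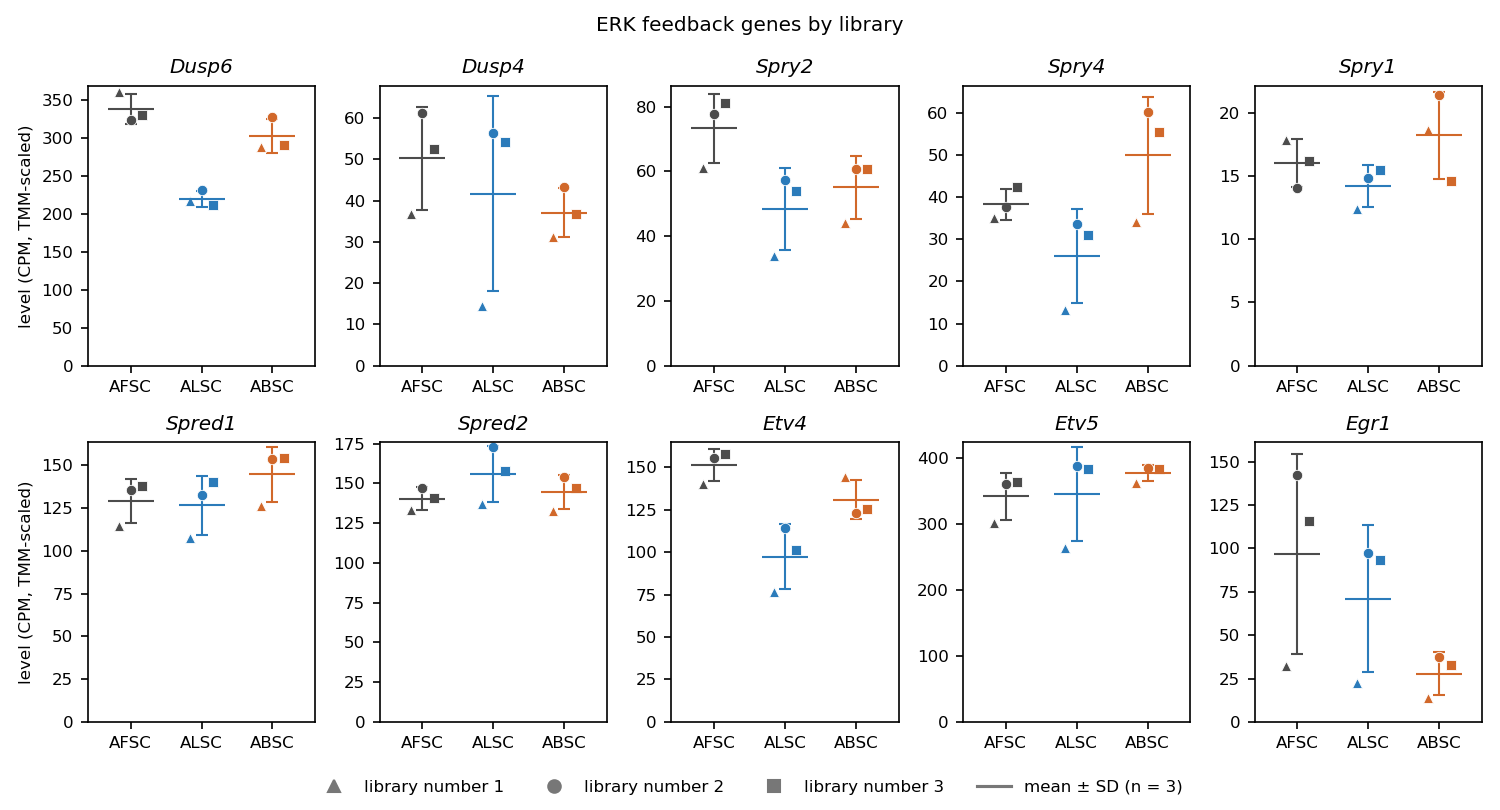
Level of each feedback gene in CPM (y axes, each starting at 0) in the 3 libraries of AFSC, ALSC and ABSC. Points are libraries with the shape giving the library number, and lines are the mean ± SD (n = 3). Dusp6 lies between 212 and 232 CPM in ALSC and above 287 CPM in all other libraries, while Egr1 is lowest in number 1 of each cell type.

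Across the 3 cell types together, a test of any difference called 2 of the 10 genes, Dusp6 (edgeR adjusted p = 0.000887) and Etv4 (edgeR adjusted p = 0.0210). Over all genes tested, 14.8% were called. With the library number as a block, 6 of the 10 were called against 37% of all genes. Without the libraries numbered 1, 8 were called against 43.9%, with 2 libraries left in each cell type. Those 2 were much alike. Their chi-square per degree of freedom, a measure of spread beyond counting error, was 2.09 in AFSC, 4.13 in ALSC and 2.87 in ABSC. Pairs with number 1 gave 12.4 to 25.4. The small p-values without number 1, here and below, rest on that narrow spread. The share of feedback genes called stood above the share of all genes in each of these fits, but with 10 genes chosen by name that is a description and no test.

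The clearest change was that of Dusp6, the cytoplasmic ERK phosphatase (ENSMUSG00000019960, chromosome 10, 99263231 to 99267489). Its level was 361, 323 and 331 CPM in the AFSC libraries numbered 1, 2 and 3, with 216, 232 and 212 CPM in ALSC and 288, 328 and 291 CPM in ABSC. Every ALSC library lay below every library of the other cell types, while AFSC and ABSC overlapped. Dusp6 fell in ALSC to 65.0% of its AFSC level (log2 fold change -0.62, SE 0.071, n = 3, edgeR adjusted p = 0.00112). ABSC were higher than ALSC by a log2 fold change of 0.46 (SE 0.071, n = 3, edgeR adjusted p = 0.00286). Between ABSC and AFSC the difference was not called (-0.16, 95% interval -0.32 to -0.0067, edgeR adjusted p = 0.224). Leaving out number 1 of every cell type kept the fall in ALSC at -0.56 (edgeR adjusted p = 8.93e-08), while leaving out number 2 or number 3 of every cell type gave -0.70 and -0.61 without a call (edgeR adjusted p = 0.0520 and 0.110).

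Dusp4, the nuclear counterpart (ENSMUSG00000031530, chromosome 8, 34807297 to 34819894), gave no call. It stood at 36.8, 61.4 and 52.5 CPM in AFSC, at 14.6, 56.4 and 54.2 CPM in ALSC, and at 31.2, 43.3 and 36.8 CPM in ABSC. Number 1 was the lowest library in each cell type, most of all in ALSC, where it was at 26.3% of the mean of numbers 2 and 3. The difference from AFSC was -0.27 in ALSC (95% interval -1.21 to 0.67) and -0.44 in ABSC (-1.38 to 0.51), both on the log2 scale. Without number 1 the ABSC level was lower than that of AFSC (-0.50, edgeR adjusted p = 5.08e-05) and of ALSC (-0.46, edgeR adjusted p = 0.000164), whereas ALSC and AFSC differed by -0.046 (edgeR adjusted p = 0.724). With the library number as a block none of the 3 differences was called.

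Of the Sprouty genes, whose products restrain Ras activation below the receptor, Spry2 stood lower without bFGF in every library (ENSMUSG00000022114, chromosome 14, 105891947 to 105896819). It was at 61.2, 77.6 and 81.0 CPM in AFSC, at 34.0, 57.5 and 53.8 CPM in ALSC, and at 43.9, 60.8 and 60.7 CPM in ABSC. The 6 libraries without bFGF all lay below the lowest AFSC library, which holds in that direction for 5.05% of all genes. Even so the differences missed the threshold in edgeR, at -0.60 for ALSC (SE 0.20, edgeR adjusted p = 0.110) and -0.41 for ABSC (SE 0.20, edgeR adjusted p = 0.289). DESeq2 on the same libraries called the difference in ALSC (-0.60, DESeq2 adjusted p = 0.0426) and not that in ABSC. With the library number as a block both were called, at -0.62 (edgeR adjusted p = 2.95e-05) and -0.42 (edgeR adjusted p = 0.000604). Without number 1 they were -0.51 (edgeR adjusted p = 1.75e-07) and -0.38 (edgeR adjusted p = 9.83e-06).

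Spry4 stood below AFSC in ALSC and, on average, above it in ABSC (ENSMUSG00000024427, chromosome 18, 38586268 to 38601268). Its level was 35.0, 37.6 and 42.3 CPM in AFSC, 13.2, 33.6 and 31.1 CPM in ALSC, and 34.1, 60.2 and 55.5 CPM in ABSC. All ALSC libraries were below all others, and the ABSC libraries numbered 2 and 3 were the highest of the 9. None of these differences passed over all 9 libraries. ABSC against ALSC stood at 0.95 (95% interval 0.25 to 1.65, edgeR adjusted p = 0.0852). That difference was called with the block (0.98, edgeR adjusted p = 0.0265), by DESeq2 (0.95, adjusted p = 0.0175), without ABSC 1 (1.17, edgeR adjusted p = 0.0432) and without number 1 of every cell type (0.85, edgeR adjusted p = 1.78e-09). In the last of these fits ABSC was also higher than AFSC (0.54, edgeR adjusted p = 1.74e-06) and ALSC lower (-0.31, edgeR adjusted p = 0.00351).

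Spry1, the least abundant of the 10 (ENSMUSG00000037211, chromosome 3, 37639947 to 37644598), showed no called difference in any of the fits. It was at 17.9, 14.1 and 16.2 CPM in AFSC, 12.4, 14.8 and 15.4 CPM in ALSC, and 18.6, 21.4 and 14.6 CPM in ABSC, with overlap between every pair of cell types. Its ABSC level was 0.36 above ALSC on the log2 scale (95% interval 0.0037 to 0.72, edgeR adjusted p = 0.188). Spry1 overlaps the antisense gene Gm42922, whose reads came to 2.09% of its own and cannot be separated without strand. A further member of the family, Spry3, was at 2.18 CPM in AFSC, 1.94 CPM in ALSC and 1.19 CPM in ABSC.

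The SPRED genes, whose products bind neurofibromin and keep Ras inactive, differed little between the cell types. Spred1 (ENSMUSG00000027351, chromosome 2, 117121374 to 117182279) was at 129 ± 12.9 CPM in AFSC, 127 ± 17.2 CPM in ALSC and 145 ± 16.1 CPM in ABSC (SD, n = 3). Spred2 (ENSMUSG00000045671, chromosome 11, 19924375 to 20024026) was at 140 ± 7.04 CPM, 156 ± 17.9 CPM and 145 ± 10.8 CPM in the same order. The cell types overlapped for both genes and neither was called, with 95% intervals against AFSC from -0.29 to 0.23 for Spred1 in ALSC and from -0.050 to 0.35 for Spred2 in ALSC. With the block, Spred1 in ABSC was above AFSC (0.16, edgeR adjusted p = 0.0279) and ALSC (0.20, edgeR adjusted p = 0.00716). In the same fit Spred2 in ALSC was above AFSC (0.15, edgeR adjusted p = 0.0495). Without number 1 these differences were 0.18, 0.18 and 0.20 in that order (edgeR adjusted p = 0.00524, 0.00352 and 0.00575).

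Etv4 and Etv5, ETS factors of the PEA3 group that FGF induces in many embryonic tissues, parted in ALSC. Etv4 (ENSMUSG00000017724, chromosome 11, 101769742 to 101785371) was at 140, 155 and 158 CPM in AFSC, 76.5, 114 and 101 CPM in ALSC, and 144, 123 and 126 CPM in ABSC. Its ALSC libraries lay below all others. Etv4 fell in ALSC to 64.3% of AFSC (log2 fold change -0.64, SE 0.13, n = 3, edgeR adjusted p = 0.0180). The call was lost without AFSC 2 (-0.62, edgeR adjusted p = 0.0804), without AFSC 3 (-0.61, 0.0808) and without ALSC 3 (-0.66, 0.0512). It was also lost without number 2 of every cell type (-0.75, edgeR adjusted p = 0.175) and without number 3 of every cell type (-0.63, edgeR adjusted p = 0.302), but not without number 1 (-0.54, edgeR adjusted p = 2.2e-08). ABSC stood at -0.21 against AFSC (95% interval -0.49 to 0.079) and at 0.43 against ALSC (edgeR adjusted p = 0.0606). DESeq2 called the difference from ALSC (0.44, DESeq2 adjusted p = 0.0226). Without number 1, Etv4 was also lower in ABSC than in AFSC (-0.33, edgeR adjusted p = 2.83e-05) and higher in ABSC than in ALSC (0.22, edgeR adjusted p = 0.00323).

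Etv5 (ENSMUSG00000013089, chromosome 16, 22381309 to 22439719) was at 301, 360 and 364 CPM in AFSC, 263, 388 and 383 CPM in ALSC, and 362, 385 and 382 CPM in ABSC. The cell types overlapped, and in none of the fits with or without the block or number 1 was Etv5 called. Its difference from AFSC was 0.014 in ALSC (95% interval -0.29 to 0.31) and 0.14 in ABSC (-0.16 to 0.44). The ratio of Etv4 to Etv5 per kilobase, formed after the values had been seen, was 0.617, 0.570 and 0.574 in AFSC, 0.385, 0.389 and 0.349 in ALSC, and 0.527, 0.422 and 0.434 in ABSC. ALSC, ABSC and AFSC did not overlap in this ratio, and in ALSC number 1 lay between the other libraries although both genes were lowest there. No test was run on it.

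Egr1, an immediate early zinc finger gene that ERK induces within minutes (ENSMUSG00000038418, chromosome 18, 34859823 to 34864984), varied more than any other feedback gene. Its level was 32.1, 142 and 116 CPM in AFSC, 22.2, 97.6 and 93.1 CPM in ALSC, and 13.6, 37.2 and 32.9 CPM in ABSC. Within each cell type number 1 was far below the other libraries, at 24.9% of their mean in AFSC, 23.3% in ALSC and 38.7% in ABSC. For a given library number the order was the same, AFSC above ALSC above ABSC. Over all 9 libraries ABSC stood at 28.8% of AFSC (log2 -1.80, 95% interval -3.29 to -0.31), which was not called (edgeR adjusted p = 0.156). With the block Egr1 was lower in ABSC than in AFSC (-1.71, edgeR adjusted p = 6.76e-05) and than in ALSC (-1.26, edgeR adjusted p = 0.000339), and lower in ALSC than in AFSC (-0.45, edgeR adjusted p = 0.0365). Without number 1 the same differences were -1.88, -1.44 and -0.44 (edgeR adjusted p = 3.35e-06, 2.21e-05 and 0.0114).

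**Figure D2:**
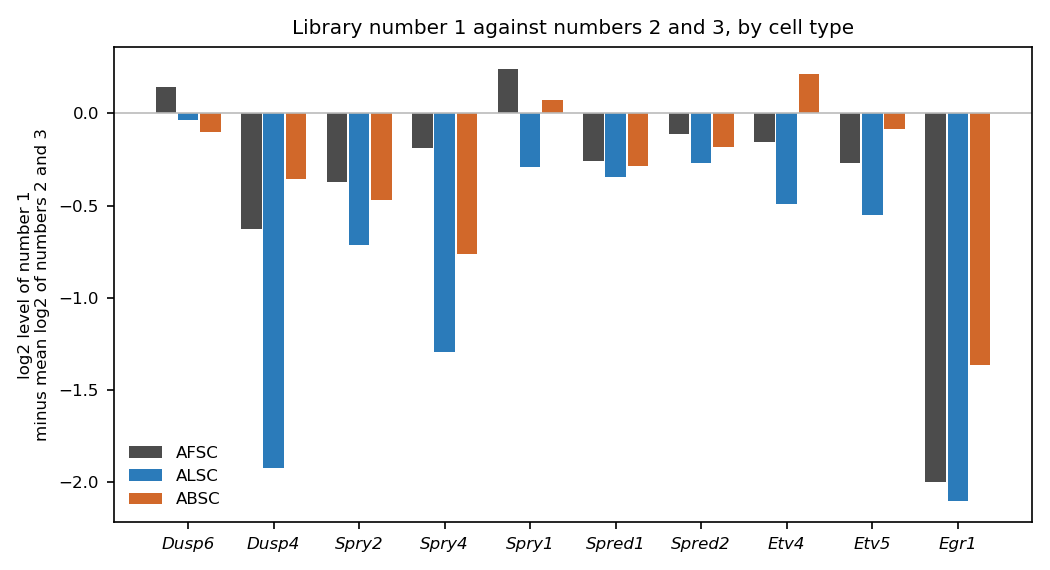
Log2 level of the library numbered 1 minus the mean log2 level of numbers 2 and 3 (y axis) for each feedback gene, with 1 bar for each cell type. Egr1 stands at -2.10 in ALSC and -1.37 in ABSC, with AFSC between, and Dusp6 between -0.10 and 0.14.

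Number 1 was the lowest library in all cell types for Dusp4, Spry2, Spry4, Spred1, Spred2, Etv5 and Egr1, but for Dusp6 its difference from numbers 2 and 3 ran from -0.10 in ABSC to 0.14 in AFSC on the log2 scale. Spry4 and Dusp4 were lowest in ALSC 1, at 40.8% and 26.3% of the mean of ALSC 2 and 3. The share of mitochondrial reads, a sign of RNA quality, ran from 0.794% in ABSC 1 to 1.68% in ALSC 1, so number 1 held both ends of its range, and the part of RNA quality in these results was not tested.

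Set against AFSC as a group, the feedback genes had 2 called lower in ALSC and 0 higher. Of all genes tested, 7.04% were called in that comparison, 3.5% in the lower direction. DESeq2 called 3 lower, Spry2 among them, against 10.5% of all genes called in either direction. The median log2 fold change was -0.36 over the 10 genes and 0.0026 over all genes. Of the 10, 8 were below 0, against 49.6% of all genes. Without number 1 the median over the 10 genes was -0.18, with 8 below 0, against 49.9% of all genes. With the block the median was -0.41. Groups did not overlap for 4 of the 10, Dusp6, Spry2, Spry4 and Etv4, all lower in ALSC, against 13.8% of all genes. With the block 4 were lower (Dusp6, Spry2, Etv4 and Egr1) and Spred2 higher, against 22.2% of all genes called, and without number 1 Spry4 was lower as well, against 25.4%.

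In ABSC against AFSC 0 of the 10 were called by edgeR, against 7.98% of all genes. By DESeq2 and by limma with voom weights the count was also 0. The median was -0.061 over the 10 genes and -0.0043 over all genes. Of the 10, 5 were below 0, against 50.9% of all genes. Without number 1 it was -0.0035 over the 10 genes. The groups were apart for Spry2 alone, lower in ABSC, against 13.5% of all genes in that direction. With the block Spry2 and Egr1 were lower and Spred1 higher, against 19.4% of all genes called. Without number 1 the lower genes were Dusp4, Spry2, Etv4 and Egr1 and the higher ones Spry4 and Spred1, against 28.5%. Both comparisons share the AFSC libraries, so their values are given side by side and were not set against each other.

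The direct comparison of ABSC with ALSC, which leaves AFSC out of the difference, called Dusp6 higher in ABSC and no other feedback gene, against 11% of all genes, 5.41% in the higher direction. The groups were apart for Dusp6, Spry4 and Etv4, each higher in ABSC, against 13.9% of all genes in that direction. The median was 0.19 over the 10 genes (0.16 without number 1) and -0.011 over all. With the block Dusp6, Spry2, Spry4 and Spred1 were higher and Egr1 lower in ABSC, against 28.5% of all genes called. Without number 1 the higher genes were Dusp6, Spry4, Spred1 and Etv4 and the lower ones Dusp4 and Egr1, against 32.2%. By group mean, Egr1 and Dusp6 were both highest in AFSC, but Dusp6 was lowest in ALSC and Egr1 lowest in ABSC. Over all 9 libraries Egr1 was not called between ABSC and ALSC (edgeR adjusted p = 0.235). Taking ABSC and ALSC together against AFSC, Dusp6 (-0.39, edgeR adjusted p = 0.00441) and Etv4 (-0.42, edgeR adjusted p = 0.0494) were lower and 0 higher, against 6.56% of all genes called, 3.51% in the lower direction. The Etv4 call was lost in 12 of 20 alternative fits, the block among them (edgeR adjusted p = 0.0654), where Spry2 (-0.52, edgeR adjusted p = 2.87e-05) and Egr1 (-1.08, edgeR adjusted p = 0.000322) were called with Dusp6, against 18.9%. Without number 1 Dusp4, Dusp6, Spry2, Etv4 and Egr1 were lower and Spred2 higher, against 25.5%.

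**Figure D3:**
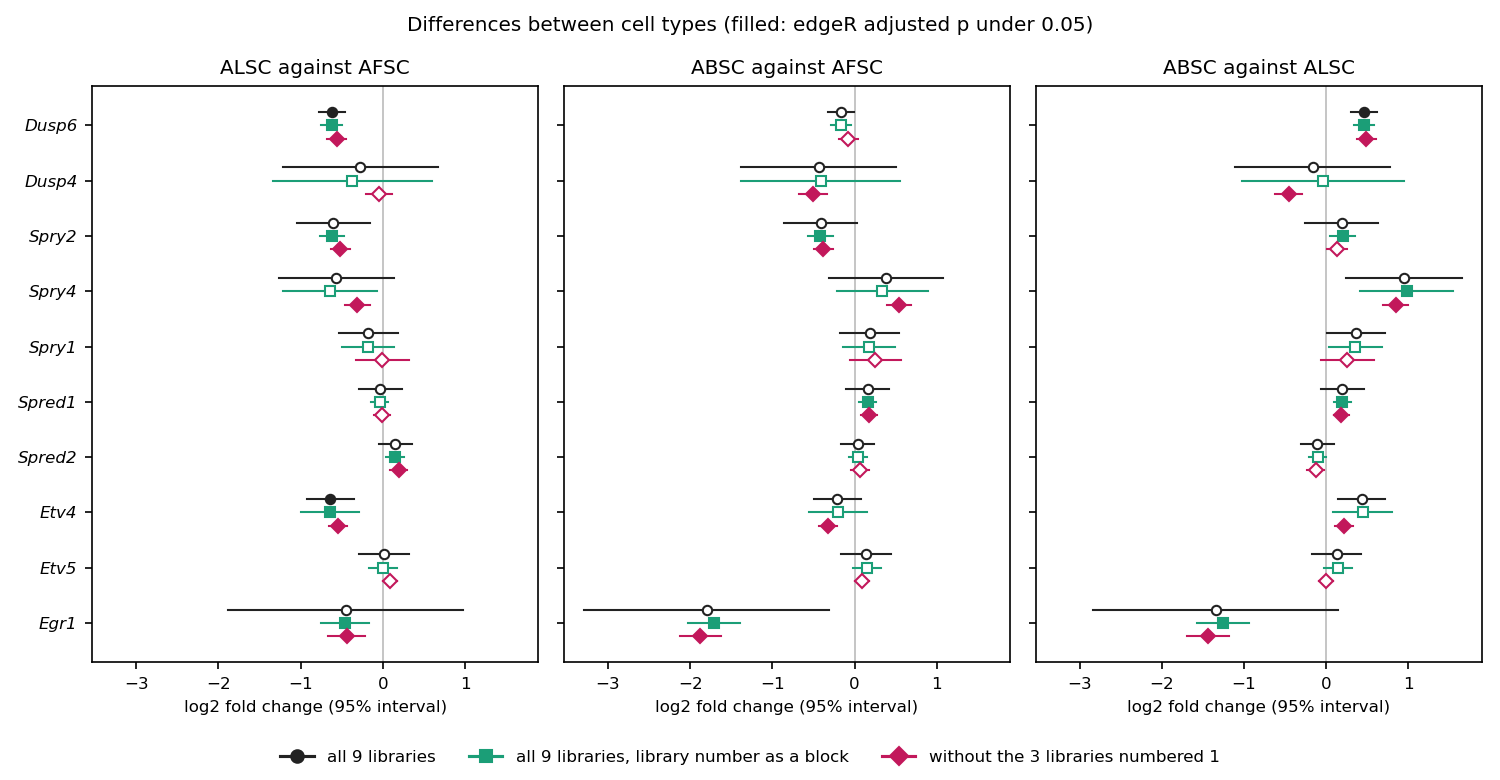
Log2 fold change (x axis) with its 95% interval for each feedback gene in the 3 comparisons, from the fit to all 9 libraries (circles), with the library number as a block (squares) and without the libraries numbered 1 (diamonds). Filled symbols have an edgeR adjusted p under 0.05. Dusp6 in ALSC is filled in all 3 fits, at -0.62, -0.62 and -0.56, while the interval of Egr1 in ABSC against AFSC narrows from -3.29 to -0.31 down to -2.03 to -1.40 with the block.

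Other genes of the pathway were taken from 8 lists with 114 distinct genes, of which 109 were tested. In ALSC against AFSC 12 were lower and 6 higher (16.5%), against 7.04% of all genes called. In ABSC against AFSC 10 were lower and 9 higher (17.4%), against 7.98%. With the block the counts were 23 lower and 9 higher in ALSC (29.4%, against 22.2% of all genes) and 22 lower and 15 higher in ABSC (33.9%, against 19.4%). Without number 1, where 110 were tested, 33 were lower and 18 higher in ALSC (46.4%, against 25.4%) and 26 lower and 28 higher in ABSC (49.1%, against 28.5%). Over all 9 libraries the medians were -0.041 in ALSC and 0.056 in ABSC on the log2 scale, against 0.0026 and -0.0043 over all genes. The counts by list that follow are from all 9 libraries, and the lists were not tested as sets. Each list gene named below as risen or fallen against AFSC kept its direction and its call without number 1, and also with the block except for Fgf8 in ALSC.

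The cells made their own FGF RNA. Fgf4, the ligand of the inner cell mass and epiblast, was at 64.4 ± 1.46 CPM in AFSC, 40.8 ± 3.49 CPM in ALSC and 75.1 ± 6.32 CPM in ABSC (SD, n = 3), an order of cell types that differs from that of Dusp6 only in the place of ABSC and AFSC. It was lower in ALSC than in AFSC (-0.66, edgeR adjusted p = 0.00220) and higher in ABSC than in ALSC (0.88, edgeR adjusted p = 0.000185). Fgf5, a ligand of the epiblast after implantation, was at 189 CPM in AFSC, 147 CPM in ALSC and 16.3 CPM in ABSC, and fell in ABSC. Fgf8, a ligand of the primitive streak, rose in ALSC to 71.0 ± 9.39 CPM from 26.8 ± 3.07 CPM (1.40, edgeR adjusted p = 0.0128; with the block 0.0540). Fgf17, of the same subfamily, rose in both, to 7.43 CPM in ALSC and 2.90 CPM in ABSC from 0.959 CPM. In all, 2 of 8 tested ligands were higher and 1 lower in ALSC, and 1 and 1 in ABSC. Of all genes tested, 7.04% and 7.98% were called in these comparisons.

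Among 9 tested receptor and coreceptor genes, Fgfr1, which encodes a receptor for FGF, was at 215 CPM in AFSC, 226 CPM in ALSC and 297 CPM in ABSC. It rose in ABSC (0.47, edgeR adjusted p = 0.00133), where the glypican gene Gpc4 fell (-0.52). In ALSC both Gpc3 (0.87) and Gpc4 (0.47) rose. Of the 12 adaptor and Ras genes Hras fell in ALSC (-0.26). Of the 15 genes of the kinase cascade Mapk3, which encodes ERK1, and Rps6ka3, which encodes a kinase below ERK, rose in ABSC (0.71 and 0.83), and Rps6ka1 fell in ALSC (-0.29).

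Dusp9, a cytoplasmic ERK phosphatase like Dusp6, kept the same order of cell types as Fgf4 with little spread. It was at 108, 108 and 113 CPM in AFSC, 59.7, 60.6 and 59.7 CPM in ALSC, and 163, 154 and 160 CPM in ABSC. The cell types did not overlap, and number 1 was not apart. Dusp9 fell in ALSC (-0.87, edgeR adjusted p = 5.27e-05) and rose in ABSC (0.54, edgeR adjusted p = 0.000219). Dusp5, a nuclear ERK phosphatase, fell in ALSC (-0.74, edgeR adjusted p = 0.0225). Of the 22 other inhibitors tested, 1 was higher and 2 were lower in ALSC, and 2 and 2 in ABSC, where Dusp1 (-0.44) and Lrig1 (-0.74) fell and Dusp10 (0.62) rose with Dusp9. Of the 12 other ETS factors, Elf2 (0.43) rose in ALSC and none was called in ABSC. The share of all genes called was 7.04% in ALSC and 7.98% in ABSC, so the ETS counts do not set that list apart.

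Of the 20 immediate early genes, the class of Egr1, 5 were lower and 0 higher in ALSC, and 3 were lower and 1 higher in ABSC. The background was 3.5% of all genes called lower in ALSC and 7.98% called in either direction in ABSC. With the block 7 were lower and 0 higher in ALSC, against 22.2% of all genes called in either direction. In ABSC 6 were lower and 2 higher with the block, against 19.4%. Without number 1 the counts were 9 lower and 1 higher in ALSC (against 25.4%) and 8 lower and 4 higher in ABSC (against 28.5%). Egr3, close kin of Egr1, was at 2.11, 1.51 and 1.22 CPM in AFSC, 0.276, 0.261 and 0 CPM in ALSC, and 0.147, 0.262 and 0.354 CPM in ABSC. It fell in ALSC (-3.11, SE 0.59, edgeR adjusted p = 0.0137) and in ABSC (-2.64, SE 0.57, edgeR adjusted p = 0.0181), on few reads, since the 0 of ALSC 3 allows up to 0.153 CPM. Nr4a1, an orphan receptor gene, fell in both (-0.73 and -0.64). Fosl1 (-1.02) and Myc (-0.94) fell in ALSC. Ier5 fell in both (-0.47 in ALSC, -0.73 in ABSC). Zfp36, which encodes an RNA-binding protein, rose in ABSC (0.57) and was not called in ALSC (-0.083). Myc was at 109 CPM in AFSC, 56.5 CPM in ALSC and 114 CPM in ABSC, so that its low cell type was that of Dusp6 and Dusp9.

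Of the 12 other ERK-responsive genes, Phlda1 fell in ALSC (-1.51, edgeR adjusted p = 0.00223) and rose in ABSC (0.74, edgeR adjusted p = 0.0312), with 5.09 CPM in AFSC, 1.79 CPM in ALSC and 8.50 CPM in ABSC. Vgf, a neuropeptide precursor gene, fell in both (-1.45 and -1.43), from 31.9 CPM to 11.6 and 11.9 CPM. Shc4 (-0.89) and Dnmt3b (-0.33) fell in ABSC. In all, 0 were higher and 2 lower in ALSC, and 1 and 3 in ABSC, against 7.04% and 7.98% of all genes called.

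**Figure D4:**
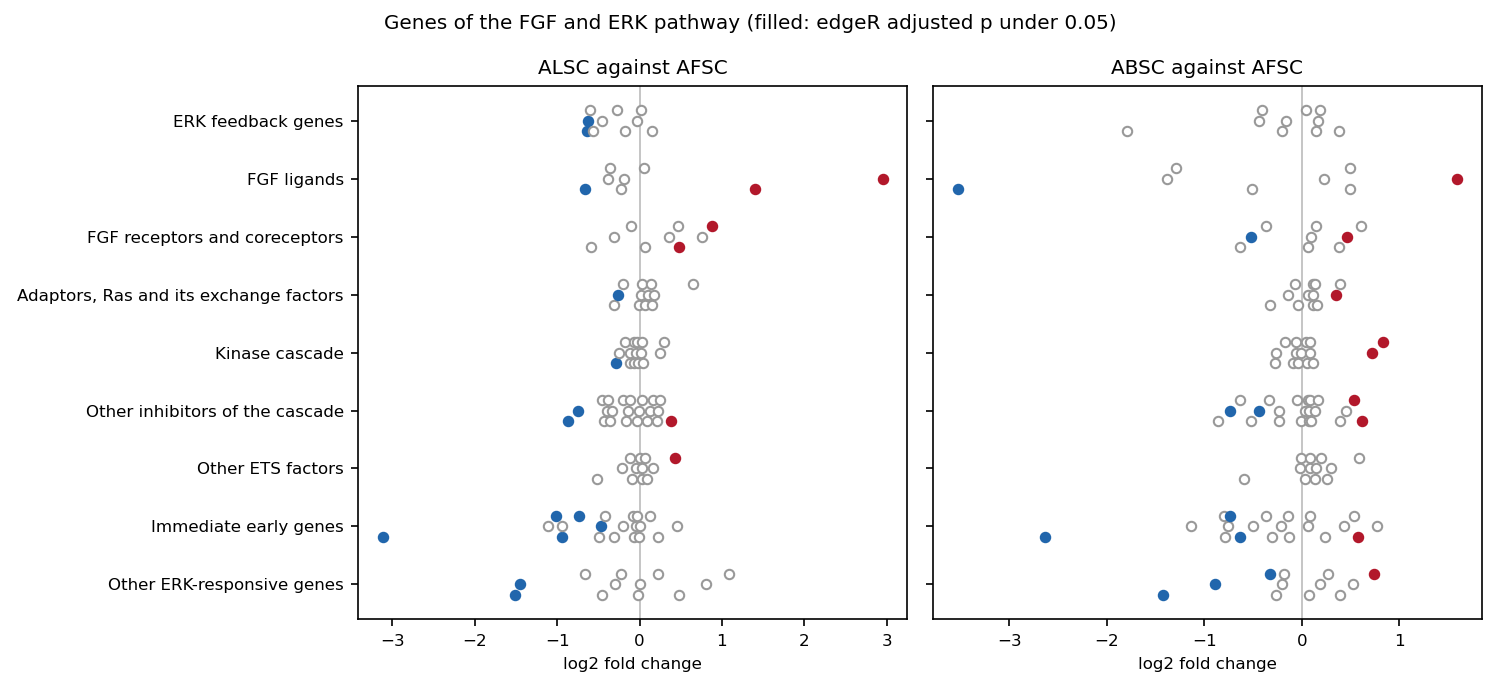
Log2 fold change against AFSC (x axis) of each tested gene of the feedback set and of the 8 pathway lists, in ALSC (left) and ABSC (right). Each circle is 1 gene, filled blue where lower and red where higher at an edgeR adjusted p under 0.05. Of the feedback genes 2 are filled in ALSC and 0 in ABSC, and the immediate early genes hold 5 and 3 filled blue circles.

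The genes whose pattern over the 9 libraries was most like that of a feedback gene were found by the root mean square difference of centred log2 levels among 9336 other genes at 10 CPM or more. For Dusp6, whose own deviation from its mean was 0.27, the nearest was Bex1 (0.070). For Etv4 (0.31) they were Mfsd2a (0.097) and Tmem229a (0.11), and for Spry2 (0.36) Mup6 (0.096) and Dus3l (0.10). For Spry4 (0.59) they were Rerg (0.18) and Csrnp1 (0.20). Egr1 (1.12) had no close neighbour, the nearest being the receptor gene Fgfr2 (0.51) and Ccdc187 (0.54). Fgfr2, like Egr1, was lowest in number 1 of each cell type. Set against their own deviation, Dusp4 (0.60) and Spry1 (0.22) had no closer neighbours than Egr1, the nearest standing at 0.28 and 0.11. No other feedback gene was among the nearest pair of any of the 10.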

How the data were processed

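RNA of 9 libraries was captured with poly-T beads and prepared with a kit that does not mark strand, per the labels' protocols. The authors deposited raw counts per gene; the tools named for them are HISAT2 2.0.5 for alignment and featureCounts 1.5.0-p3 for counting, per the submitters' processing notes. Those name mm9, but the coordinates in the table are GRCm38: 53499 of 54409 shared genes (98.33%) sit exactly where GENCODE M21 has them, 9 of the 10 feedback genes among them (Spry4 differs). The deposited gene length, another value of the table, was used for levels per kilobase. Rows without a symbol (346, 0.208% to 0.227% of counts) were left out.

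From the counts, edgeR 4.0.16 in R 4.3.3 kept genes by filterByExpr (minimum count 10, total 15), scaled by TMM (factors 0.963 to 1.06) and fitted group means with robust quasi-likelihood dispersions (6 residual degrees of freedom). P-values are 2-sided with Benjamini-Hochberg adjustment. The fit was tested on simulated counts with the same dispersion for every gene and no effect of library number. That test therefore does not cover the spread that number 1 brings. Alternatives were DESeq2 1.42.0, limma 3.58.1, other scalings and filters, fewer libraries, and the library number as a block. Same-numbered libraries deviated together (correlations 0.464 to 0.554 for number 1, 0.197 to 0.287 for number 2, 0.224 to 0.356 for number 3). By the rule of every pair over 0.1 the numbers were taken to pair the libraries, in the block fit only. However, numbers 2 and 3 also correlated with each other (0.221 to 0.273), and number 1 with them at -0.426 to -0.304. With number 1 so far apart, the rule could not show whether numbers 2 and 3 pair the libraries. Other genes named are up to 4 called genes per list with the largest changes at 1 CPM or more in a group. Spry3 and, in ALSC, Ier5 fall outside that rule and were named after their values were seen. Some genes that the rule names are not reported here. The members and lists were chosen with earlier results of these data known. Intervals of fold changes cover the spread between libraries, and the limit that a count of 0 allows (3 counts) covers counting error only.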

Additional observations from a re-analysis of the deposited data

How the results depend on the processing

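Over 21 alternative fits (20 where all cell types enter the difference), the fall of Dusp6 in ALSC ran from -0.70 to -0.56 and was called in 19. That of Etv4 ran from -0.77 to -0.49 and was called in 16. Of 830 values for single feedback genes under an alternative, 771 kept their side of the threshold, 36 gained a call, 23 lost one, and no called value changed sign. A further 32 changed sign without being called in either fit, and these count among the 771. The replicate block raised the feedback genes called from 0 to 3 (ABSC against AFSC), from 2 to 5 (ALSC against AFSC), from 1 to 5 (ABSC against ALSC) and from 2 to 6 (any difference). It raised all genes called from 1291 to 3132, 1139 to 3590, 1775 to 4605, 2395 to 5992 and, for ABSC and ALSC together against AFSC, 1061 to 3058. The block gave 3 feedback genes in that last comparison. DESeq2 called 3 in ALSC against AFSC and 3 in ABSC against ALSC. RLE factors, non-robust dispersions and no filter on low counts each called 1 for both cell types together. A fit of the groups compared only called 1041 genes in ABSC against ALSC.

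Leaving out 1 library, or 1 number in every cell type, gave ranges of 0 to 6 feedback genes called in ABSC against AFSC, ALSC against AFSC, ABSC against ALSC and both together, and 0 to 8 for any difference. All genes called ranged from 96 to 4622, 16 to 4122, 159 to 5225, 27 to 4142 and 176 to 7121 in that order. The highest values are those without number 1, and the fits without number 2 or number 3 of every cell type gave the lowest; they hold 2 libraries a group, number 1 among them. The lowest count of a feedback gene was 269 reads.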

Other observations

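The immediate early genes Ier3 and Nr4a1 differed from Egr1 in where the libraries numbered 1 stood. Ier3, singled out after its values were seen, was at 27.3, 2.69 and 3.48 CPM in AFSC 1, 2 and 3, at 23.5, 3.86 and 4.74 CPM in ALSC, and at 18.03, 2.98 and 2.48 CPM in ABSC. Number 1 was thus the highest library for Ier3 in every cell type, as for 21.5% of all genes tested, and the lowest for Egr1. Fosb, also singled out afterwards, was at 11.3 CPM in ABSC 1 and between 1.01 and 3.26 CPM in the other 8 libraries, with number 1 the lowest in AFSC and ALSC as for Egr1. Nr4a1 was highest in number 1 of each cell type, at 39.3 CPM in AFSC, 22.5 CPM in ALSC and 23.8 CPM in ABSC. The Spry4 to Spry2 ratio per kilobase was 0.353, 0.451 and 0.416 in ABSC, 0.260, 0.220 and 0.238 in AFSC, and 0.177, 0.266 and 0.263 in ALSC, so ABSC lay above all other libraries. No test was run on these values.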
